A study of Mus musculus with 9 samples.

Results

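The 9 genes described here encode the machinery of MHC class II antigen presentation. They are the classical chains H2-Aa, H2-Ab1 and H2-Eb1, the invariant chain Cd74, the transactivator Ciita, the peptide editor chains H2-DMa and H2-DMb1, and the chains of the editor's inhibitor, H2-Oa and H2-Ob. They were chosen by name, with earlier results of these data known, and all 9 were found among the 19694 genes that the arrays measured. Each gene was represented by its brightest probe.

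RNA of mouse lung was hybridized to 9 one-color Agilent arrays, 4 with the label control and 5 with the label irradiated left lung tissue. All arrays come from male C57BL/6 mice with a stated age of 10 weeks. Lungs were taken, per the study's methods, at set times after irradiation, so age at tissue collection can differ between arrays. Irradiated mice were under zoletil and rompun for the procedure, and the control lungs, per the study's methods, came from mice that received no irradiation. Per the study's methods, RNA from triplicate experiments was pooled before labeling, so an array is a pool of animals. Dose, lung region and time after irradiation are absent from the labels, and each irradiated array can differ from the others in any of these. Nothing in the labels says that arrays of the same group come from separate animals, so the p-values below measure the spread between these arrays only. The lungs are whole tissue, in which fewer cells of a type and less RNA per cell cannot be told apart.

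MHC class II molecules are pairs of an alpha and a beta chain that show peptides to helper T cells. The invariant chain fills the peptide groove of a new molecule and leads it to the endosome, where cathepsins cut it down to a short fragment. H2-DM then exchanges this fragment for a peptide, and H2-DO holds H2-DM back. Ciita is the coactivator that switches the class II genes on, and interferon gamma induces it. In the lung, class II molecules are carried by dendritic cells, macrophages, B cells and type II alveolar cells.

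Ciita does not bind DNA itself but docks on factors assembled on short elements, called the X and Y boxes, in front of the class II genes. These elements are shown as background on the family. Most of the genes below varied together from array to array, and any part of these elements in that was not tested. The RefSeq promoter table (build GRCm38.p6), which runs from 250 bases before to 50 bases after each start site, held 7 entries for 6 of the 8 genes looked up. Both strands of each entry were searched for the letters GNAAC, the start of an X box, followed by 20 to 30 bases and then GATTGG, the core of a Y box. The letters were chosen after the sequences had been seen. In these entries the pair of motifs was present for 5 genes, against 0.651% of all 32851 entries. The letters GATTGG alone were present in 16.1% of all entries. Neither entry of H2-DMa held the pair of motifs at this spacing. In the following windows, read 5′ to 3′ on the gene's strand, the capitals mark the motifs.
H2-Aa, chr17:34287857-34287914, minus strand: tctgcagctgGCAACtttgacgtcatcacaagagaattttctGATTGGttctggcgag
H2-Eb1, chr17:34305766-34305822, plus strand: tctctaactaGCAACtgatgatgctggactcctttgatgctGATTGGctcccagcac
H2-DMb1, chr17:34153087-34153144, plus strand: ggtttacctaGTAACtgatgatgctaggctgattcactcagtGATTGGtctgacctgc
H2-Oa, chr17:34092293-34092350, plus strand: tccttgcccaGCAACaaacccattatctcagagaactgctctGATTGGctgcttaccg
H2-Ob, chr17:34238808-34238862, plus strand: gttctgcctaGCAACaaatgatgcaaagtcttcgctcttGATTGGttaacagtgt
The first motif began between 76 bases before the start site, in H2-Oa, and 94 bases before it, in H2-DMb1. Between the motifs lay 24 bases in H2-Ob, 26 in H2-Eb1 and 27 in the other genes. The inhibitor chains H2-Oa and H2-Ob thus matched the same loose pattern as the other 3 genes, in which 1 letter and the spacing are free.

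Some arrays stood apart from the rest of their group before any class II gene was considered. All 10 markers of type II alveolar cells, which make surfactant, passed the scanner software's mark for a signal well above background on every array. Irradiated array 1 was nearly without heart muscle signal: its 10 cardiac markers averaged −5.43 on the log2 scale relative to the control mean, against −0.55 to 0.56 on the other 8 arrays. Control array 3 carried skeletal muscle signal, with a mean of 4.16 for 10 markers, against −1.94 to −0.98 on the others. The scanner software called 72.8% to 89.1% of the gene spots well above background on each array, and no spot was saturated. The 9 class II genes passed this mark on every array. Precision is limited by how few arrays there are.

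The comparison of control with irradiated arrays asks whether the class II genes differed in irradiated lung. With all 9 arrays, 7 of the 9 genes had a higher mean and 2, the inhibitor chains, a lower mean after irradiation. The median difference was 0.26 on the log2 scale, against 0.0085 over all genes, of which 51.9% had a higher mean. No class II gene passed the threshold of limma at an adjusted p under 0.05, which 0.416% of all genes passed. At an unadjusted p under 0.05 there was 1 gene that was higher, H2-Aa, and 1 that was lower, H2-Ob, against 7.37% and 4.98% of all genes. In no class II gene did the irradiated arrays all lie on one side of the control arrays, which 5.14% of all genes did. Without control array 1 the groups did not overlap for H2-Aa and H2-Ob, against 8.21% of all genes, and without irradiated array 3 for H2-Oa, against 6.15%. The exact two-sided permutation test of the 9 arrays, for which the smallest possible p is 0.00794, gave no class II gene a p under 0.05.

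**Figure D1:**
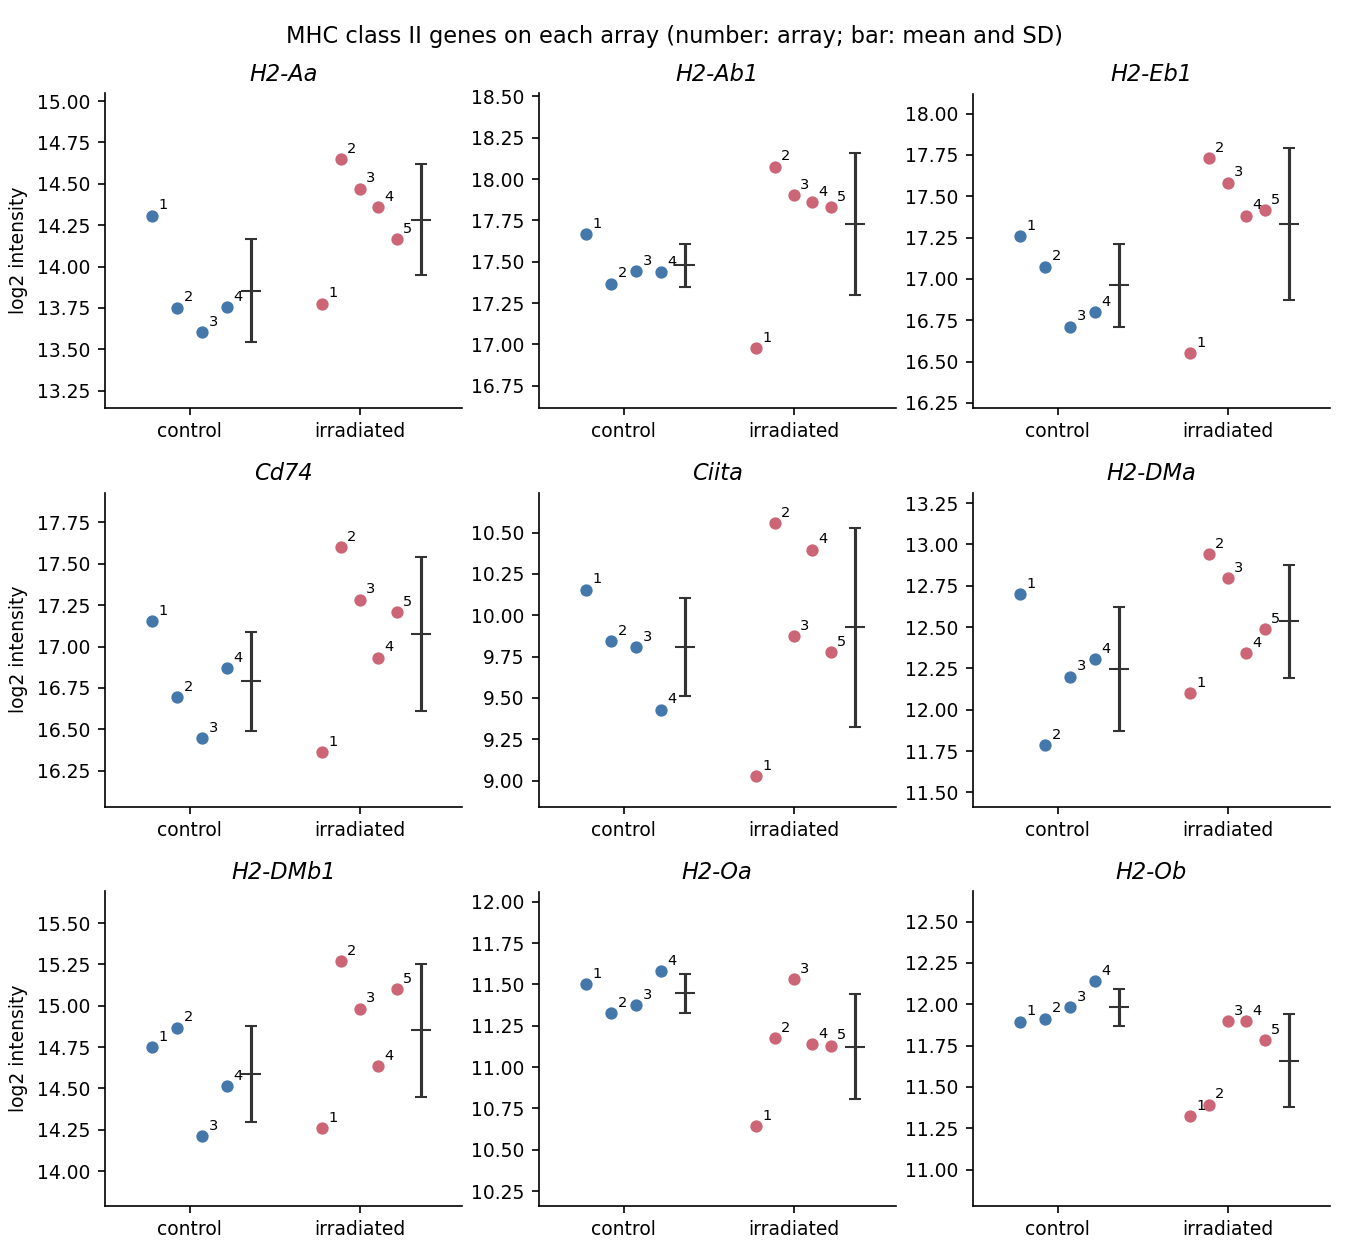
Log2 intensity of the 9 class II genes on the 4 control (blue) and 5 irradiated (red) arrays, each point labeled with its array number, and the mean with its SD (bar). All panels span the same number of log2 units. Irradiated array 1 is the lowest of the 9 arrays for 6 genes and irradiated array 2 the highest for 7.

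The classical chains form the molecules that sit on the cell surface. H2-Aa, the alpha chain of I-A, had log2 intensities of 14.31, 13.75, 13.60 and 13.75 on control arrays 1 to 4. On irradiated arrays 1 to 5 it was at 13.77, 14.65, 14.47, 14.36 and 14.17. Irradiated arrays 2, 3 and 4 lay above every control array, and irradiated arrays 1 and 5 lay below control array 1. The difference was 0.43 (SE 0.19), a fold of 1.35 with a 95% interval of 1.00 to 1.81 and an adjusted p of 0.497.

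H2-Ab1, the beta chain that pairs with H2-Aa, was at 17.67, 17.37, 17.44 and 17.44 on the control arrays. The irradiated arrays gave 16.98, 18.07, 17.90, 17.86 and 17.83. Irradiated arrays 2 to 5 were thus above every control array, and irradiated array 1 was below every control array. This split within the irradiated group left a difference of 0.25 (SE 0.20), a fold of 1.19 (95% interval 0.875 to 1.62) with an adjusted p of 0.780.

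H2-Eb1 encodes the beta chain of I-E. C57BL/6 mice make no I-E on the cell surface because their H2-Ea gene is defective, but they still transcribe H2-Eb1. It had log2 intensities of 17.26, 17.07, 16.71 and 16.80 in the controls. After irradiation it had 16.55, 17.73, 17.58, 17.38 and 17.42. As with H2-Ab1, irradiated array 1 was the lowest of all arrays and the other 4 irradiated arrays were the highest. Its difference was 0.37 (SE 0.22), a fold of 1.29 (95% interval 0.916 to 1.83) with an adjusted p of 0.666.

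Cd74, the invariant chain, was at 17.15, 16.69, 16.44 and 16.87 in the control arrays. It was at 16.36, 17.60, 17.28, 16.93 and 17.21 in the irradiated arrays. Here 3 irradiated arrays lay above every control array, irradiated array 4 lay below control array 1, and irradiated array 1 was again the lowest. The difference of 0.29 (SE 0.23) was a fold of 1.22 (95% interval 0.851 to 1.75), with an adjusted p of 0.787.

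Ciita, the transactivator of the family, was at 10.15, 9.84, 9.81 and 9.43 in the control arrays and at 9.03, 10.56, 9.87, 10.40 and 9.78 in the irradiated arrays. Only irradiated arrays 2 and 4 were above every control array, and irradiated array 1 was below all of them. The irradiated arrays spread over an SD of 0.60 (n = 5), against 0.30 for the controls (n = 4). Its difference of 0.12 (SE 0.29) was the smallest in size of the 9 genes, a fold of 1.08 (95% interval 0.693 to 1.70) with an adjusted p of 0.963. Its sign turned when control array 4, irradiated array 2 or irradiated array 4 was left out.

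The chains of H2-DM, which loads peptides, had higher means in irradiated lung. H2-DMa was at 12.70, 11.78, 12.20 and 12.30 on the control arrays and at 12.10, 12.94, 12.80, 12.34 and 12.49 on the irradiated arrays. Its lowest array was control array 2, and irradiated arrays 2 and 3 were above every control. The difference was 0.29 (SE 0.21), a fold of 1.22 (95% interval 0.883 to 1.69) with an adjusted p of 0.747.

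H2-DMb1, the beta chain of the same molecule, had control values of 14.75, 14.87, 14.21 and 14.51. Its irradiated values were 14.26, 15.27, 14.98, 14.64 and 15.10. Irradiated arrays 2, 3 and 5 lay above every control array, and irradiated array 1 lay near control array 3, the lowest. The difference was 0.26 (SE 0.21), a fold of 1.20 (95% interval 0.868 to 1.66) with an adjusted p of 0.779.

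The chains of H2-DO, the inhibitor of H2-DM, ran the other way. H2-Oa was at 11.50, 11.33, 11.37 and 11.58 in the controls and at 10.64, 11.18, 11.53, 11.14 and 11.13 in the irradiated arrays. All irradiated arrays except array 3 lay below every control array. The difference was −0.32 (SE 0.16), a fold of 0.800 (95% interval 0.628 to 1.02) with an adjusted p of 0.552.

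H2-Ob was at 11.89, 11.91, 11.98 and 12.14 in the controls, an SD of 0.11. In the irradiated arrays it was at 11.32, 11.39, 11.90, 11.90 and 11.78. Irradiated arrays 1, 2 and 5 lay below every control array, while irradiated arrays 3 and 4 lay between control arrays 1 and 2. The difference was −0.32 (SE 0.14), a fold of 0.799 (95% interval 0.641 to 0.996) with an adjusted p of 0.490. A dimmer probe of H2-Ob gave a difference of −0.21 (SE 0.16) with an adjusted p of 0.773, and it followed the brighter probe with r = 0.94 over the 9 arrays.

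The peptide editor and its inhibitor were also set against each other on each array. The mean of H2-DMa and H2-DMb1 minus the mean of H2-Oa and H2-Ob, each gene relative to its control mean, was 0.32, 0.0031, −0.17 and −0.15 on the control arrays. It was 0.49, 1.12, 0.47, 0.27 and 0.64 on the irradiated arrays. Irradiated array 4 lay below control array 1, and the other 4 irradiated arrays lay above every control array, irradiated array 1 included. This measure was chosen after the values had been seen and is given without a test.

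Irradiated array 1, the array nearly without heart muscle signal, shaped several of these differences. On this array, the 7 genes other than the inhibitor chains averaged −0.38 relative to the control mean, against 0.31 to 0.73 on the other irradiated arrays. The inhibitor chains averaged −0.73 on it, against −0.43 to 0.0021 on the others. Without irradiated array 1 the median difference of the 9 genes was 0.41. No gene then passed the adjusted threshold, which 1.69% of all genes passed. In that fit, H2-Ab1 was higher by 0.44 with an adjusted p of 0.0705, H2-Eb1 by 0.57 with 0.104 and H2-Aa by 0.56 with 0.190. At an unadjusted p under 0.05 there were 5 higher genes, H2-Aa, H2-Ab1, H2-Eb1, Cd74 and H2-DMb1, against 7.68% of all genes. All remaining irradiated arrays lay above all controls for 2 genes, H2-Ab1 and H2-Eb1, against 5.45% of all genes. The inhibitor chains were at −0.20 for H2-Oa and −0.24 for H2-Ob.

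The arrays also fell into pairs by features of their scan. Each control array had 1 irradiated array that was closest to it in the position of the top spot row on the scanner image and in the median local background. These pairs were control array 1 with irradiated array 2, 2 with 3, 3 with 4, and 4 with 5, and irradiated array 1 had no partner. The labels name no slide or scan, and the pairs were found after the data had been seen. Within the 4 pairs, the 7 genes other than the inhibitor chains were higher in the irradiated array in 4 of 4 pairs each, as were 17.9% of all genes. H2-Eb1 differed by 0.47, 0.51, 0.67 and 0.62, the pairs taken in the order above. H2-Ab1 differed by 0.41, 0.53, 0.42 and 0.39. The narrow range of both beta chains across pairs stood beside a wider range for H2-DMa, from 0.14 to 1.01, and for Ciita, from 0.029 to 0.59. H2-Ob was lower in 4 of 4 pairs, by 0.013 to 0.50, as were 17.3% of all genes, and H2-Oa was higher in 1 of 4.

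**Figure D2:**
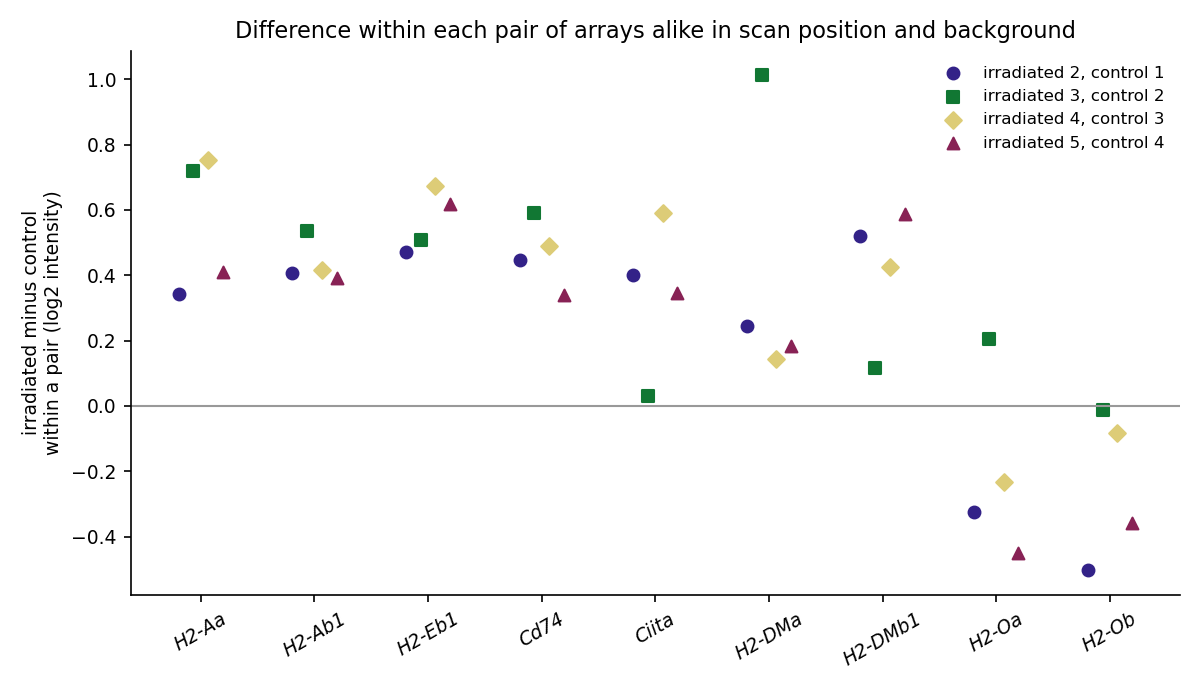
Irradiated minus control log2 intensity of each class II gene within each of 4 pairs of arrays alike in scan position and local background. All points of the 7 genes from H2-Aa to H2-DMb1 lie above 0, and H2-Ob lies below 0 in all pairs.

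With the pairs as a block in the limma fit, which drops irradiated array 1 from the comparison, 4 of the 9 genes rose. H2-Eb1 rose by 0.57 (SE 0.058, adjusted p = 0.0273), H2-Ab1 by 0.44 (SE 0.053, adjusted p = 0.0343), Cd74 by 0.47 (SE 0.060, adjusted p = 0.0367) and H2-Aa by 0.56 (SE 0.090, adjusted p = 0.0493). In this fit 3.84% of all genes passed, and 2.28% of all genes passed as higher. With the pairs as a random block, which keeps irradiated array 1, H2-Aa alone passed, with a difference of 0.51 (SE 0.12) and an adjusted p of 0.0367. There 9.45% of all genes passed, and 5.65% of all genes passed as higher. In this random block the adjusted p was 0.0673 for H2-Eb1, 0.126 for H2-Ab1 and 0.132 for Cd74, so these 3 were called only where the pairs were a block and irradiated array 1 was dropped. Over all 21 alternatives for each gene, the adjusted p ran from 0.0273 to 1.00 for H2-Eb1, from 0.0343 to 1.00 for H2-Ab1, and from 0.0367 to 1.00 for Cd74 and for H2-Aa.

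**Figure D3:**
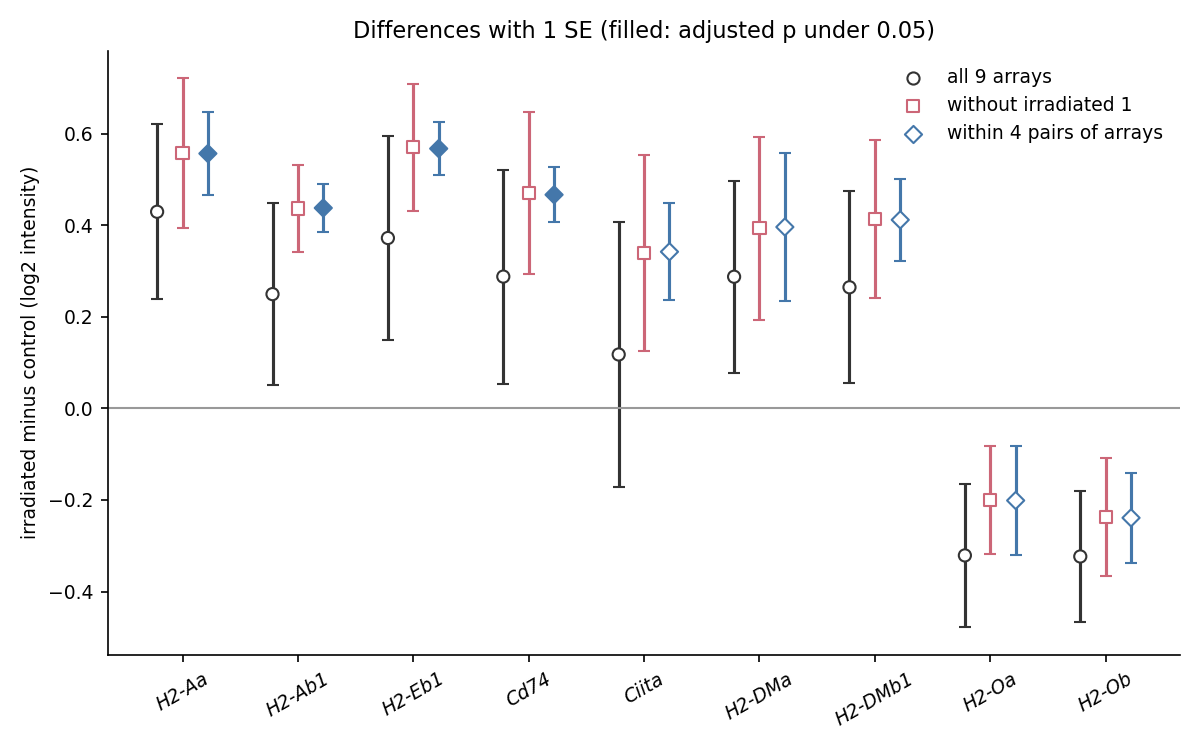
Irradiated minus control difference in log2 intensity of each class II gene with its SE (bar) in 3 limma fits, over all 9 arrays (circles), without irradiated array 1 (squares) and within 4 pairs of arrays (diamonds). Filled symbols have an adjusted p under 0.05 and appear only in the pair fit, for H2-Aa, H2-Ab1, H2-Eb1 and Cd74.

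Across the 9 arrays the genes fell into a large and a small group by their likeness, which is a description over points that share the same libraries and normalization. Among the 7 genes other than the inhibitor chains, the Pearson r of the log2 intensities was 0.54 to 0.94 in 21 pairs, with a median of 0.84. H2-Ab1 and H2-Eb1 were the most alike of them, at 0.94, and Ciita and H2-DMa the least, at 0.54. H2-Oa and H2-Ob were alike, at 0.81. In the 14 pairs that joined an inhibitor chain to another gene, r was −0.29 to 0.37 with a median of 0.079. After the group means were taken out, the median over the same 14 pairs was 0.46. H2-Oa then had r of 0.48 to 0.80 with the 7 genes, the highest with H2-Ab1, and H2-Ob had 0.091 to 0.44, while the r between H2-Oa and H2-Ob was 0.70.

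**Figure D4:**
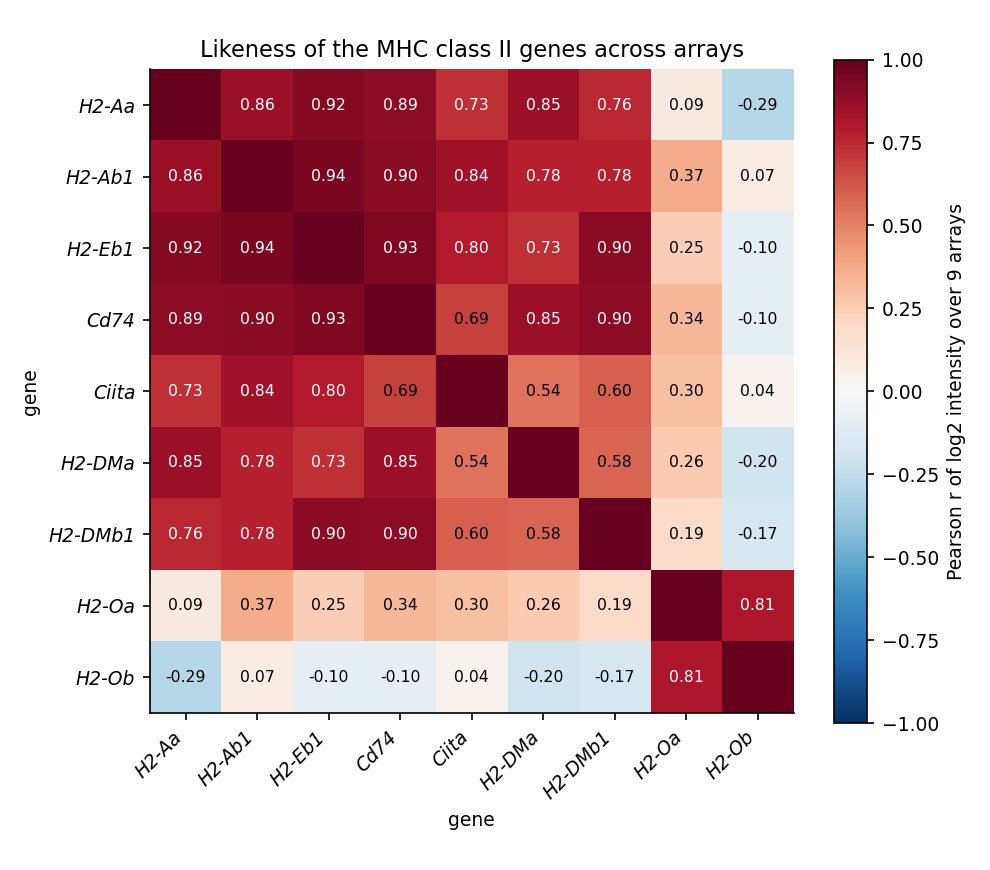
Pearson r of the log2 intensities over the 9 arrays for each pair of class II genes, from −1 (blue) to 1 (red). The block of 7 genes from H2-Aa to H2-DMb1 holds values of 0.54 and above, and H2-Oa and H2-Ob are alike mainly with each other.

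Genes outside the family followed H2-Aa more closely than its own partners did. Among 15230 genes well above background on all arrays, the 5 most like H2-Aa over the 9 arrays were C1qa and C1qb (r = 0.99 each), Bcl2a1d (0.98), Il18bp (0.96) and Lap3 (0.95). C1qa and C1qb are complement components made by tissue macrophages, Bcl2a1d belongs to a survival family, and Il18bp binds and blocks an interleukin. H2-Eb1 ranked 28th in likeness to H2-Aa and H2-Ab1 ranked 112th. For Ciita, the 5 most alike were Lair1 (0.92), Cd274, Efhd2, Mavs and Tnfaip8. H2-Ab1 ranked 16th for Ciita, and H2-Eb1 ranked 35th. Each set of 5 is the top of 15230 r values over only 9 arrays. The r that unrelated genes reach in such a search was not tested.

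Of the 12 genes from interferon gamma to Ciita, 11 had a higher mean in irradiated lung, none passed the adjusted threshold, and none had an unadjusted p under 0.05. Their median was 0.19, and 0.085 without control array 3 to 0.22 without irradiated array 1 when an array was left out. Irf1, a factor that drives the inducible Ciita promoter, had a difference of 0.12 (SE 0.12) and Jak1, a kinase of the receptor, −0.035 (SE 0.12), which were 0.20 and 0.031 without irradiated array 1. Ifngr1, a receptor chain, had 0.073 (SE 0.13), and Ifng itself 0.40 (SE 0.56). The highest of the list was Socs1, an inhibitor of this signal, at 0.42 (SE 0.36), and both were named after their values were seen. Of the 9 factors that bind the X and Y boxes or join them as coactivators, 7 had a lower mean, with a median of −0.11 (−0.0062 without control array 2) and none called at either threshold. Crebbp, a coactivator, had −0.17 (SE 0.17), and Nfyc, a subunit of the Y box factor, −0.15 (SE 0.081). The class II relatives H2-Eb2 and H2-DMb2 had differences of 0.38 (SE 0.26) and 0.18 (SE 0.26), with a mean of both that ran from 0.11 without control array 2 to 0.44 without control array 4. Without control array 2, 1 of the 2 had a lower mean in irradiated lung. H2-Ea was not found through the RefSeq table.

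The proteases and lysosomal proteins that cut the invariant chain and antigens held the most genes with an unadjusted p under 0.05 among the pathway lists. Of 12 such genes, 11 had a higher mean and 10 were higher at an unadjusted p under 0.05, against 7.37% of all genes, with a median of 0.35. None passed the adjusted threshold with all arrays. Ctsd, an aspartic protease of the lysosome, had a control mean of 15.77 and an irradiated mean of 16.75, a difference of 0.98 (SE 0.17) with an adjusted p of 0.0529. Ctsh, an aminopeptidase, had a difference of 0.30 (SE 0.084, adjusted p = 0.212), and Lamp1, a lysosomal membrane protein, 0.21 (SE 0.084, adjusted p = 0.437). In both Ctsd and Ctsh, all irradiated arrays lay above all control arrays, against 5.14% of all genes whose groups did not overlap in either direction. Ctss, which makes the last cuts of the invariant chain, had a difference of 0.74 (SE 0.23, adjusted p = 0.270).

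Without irradiated array 1, Ctsd passed the threshold, with a difference of 1.06 and an adjusted p of 0.0277, as 1 of the 12, against 1.69% of all genes. With the scan pairs as a block, Ctss rose by 0.90 (adjusted p = 0.0396) and Ifi30, which reduces the disulfide bonds of antigens, by 0.42 (adjusted p = 0.0355), 2 of the 12 against 2.28% of all genes. With the pairs as a random block, 7 of the 12 rose, Ctsb, Ctsd, Ctsh, Ctss, Ctsz, Lgmn and Ifi30, against 5.65% of all genes. The range of the list's mean relative to the controls was −0.12 to 0.16 in the controls and 0.18 to 0.53 after irradiation. Irradiated array 1 was at 0.18, the lowest of the irradiated arrays but above every control array.

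Of 6 genes listed for the turnover and surface control of class II molecules, 5 had a higher mean and 1 a lower mean, with a median of 0.37, or 0.60 without irradiated array 1 and 0.24 without irradiated array 2. None passed the adjusted threshold, and 1 was lower at an unadjusted p under 0.05, Marchf1, against 4.98% of all genes. Marchf1, the ubiquitin ligase that sends class II molecules to degradation, had a control mean of 14.45 and an irradiated mean of 13.86, a difference of −0.59 (SE 0.18, adjusted p = 0.255). Its relative Marchf8 had 0.077 (SE 0.10), and Cd83, which opposes Marchf1, had 0.18 (SE 0.21). Without irradiated array 1, Marchf8 had 1.0e-04 and Cd83 had 0.36. The other 3 genes were dimmer, with differences of 0.64 (SE 0.39) for the cytokine Il10, 0.71 (SE 0.58) for Ctla4, a T cell receptor for costimulatory molecules, and 0.57 (SE 0.31) for Lag3, a T cell receptor for class II molecules, and Il10 was well above background on 6 of the 9 arrays. With a random block for the scan pairs, Marchf1 fell by 0.56 (adjusted p = 0.0323), against 3.8% of all genes called as lower, and its adjusted p with the pairs as a fixed block was 0.126. With the pairs as a fixed block, Ctla4 rose by 0.89 (adjusted p = 0.0444), against 2.28% of all genes, and its adjusted p with a random block was 0.156.

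Of 10 B cell markers, 9 had a lower mean, 3 were lower at an unadjusted p under 0.05, against 4.98% of all genes, and none passed the adjusted threshold, with a median of −0.31. Cd79b, a part of the B cell receptor, had a difference of −0.38 (SE 0.14), and Cr2, a complement receptor, −0.48 (SE 0.13). The summed intensity of the 10 markers ranged from 36647 to 57458 in the controls and from 29975 to 39639 after irradiation. Every array measured all 10 well above background. With a random block for the pairs, 2 of the 10 fell, among them Cr2, by 0.45 (adjusted p = 0.0401), against 3.8% of all genes, and with a fixed block none did, against 1.56%. B cells are known as the main site of H2-DO, and the part of the B cell markers in the differences of H2-Oa and H2-Ob was not tested.

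Among 14 measured macrophage markers, 10 had a higher mean and 6 were higher at an unadjusted p under 0.05, against 7.37% of all genes, and 1, Fabp4, was lower, against 4.98%. Their median was 0.44, and none passed the adjusted threshold. Mrc1, a mannose receptor, had a difference of 0.60 (SE 0.11, adjusted p = 0.0652), Adgre1, a surface receptor of macrophages, 0.72 (SE 0.17, adjusted p = 0.138), and C1qa 0.94 (SE 0.34, adjusted p = 0.347). Genes of alveolar macrophages differed in sign, with −0.63 (SE 0.49) for Marco, −0.47 (SE 0.35) for Siglecf, −0.30 (SE 0.36) for Ear2, −1.59 (SE 0.63) for Fabp4, which is also made by fat and capillary cells, and 0.68 (SE 0.36) for Chil3. Without irradiated array 1, Marco was at −1.04, Siglecf at −0.71, Ear2 at −0.49, Fabp4 at −1.29 and Chil3 at 0.86. The summed intensity of the 14 markers ranged from 274871 to 540214 in the controls and from 336336 to 537490 after irradiation. With the scan pairs as a block, 5 of the 14 rose, C1qa, C1qb, C1qc, Adgre1 and Mertk, against 2.28% of all genes. With a random block, which keeps irradiated array 1, these 5 rose together with Mrc1 (adjusted p = 0.0046) and Fcgr1 (adjusted p = 0.0245), against 5.65% of all genes. Without irradiated array 1, Adgre1 and C1qc passed the threshold of limma, with adjusted p of 0.0159 and 0.0292, against 1.69% of all genes.

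Of 10 measured dendritic cell markers, 8 had a higher mean and 2 were higher at an unadjusted p under 0.05, Itgax and Cd209a, against 7.37% of all genes. Their median was 0.41, and 0.24 without control array 3, 0.26 without irradiated array 2 and 0.64 without irradiated array 1. Itgax, the integrin CD11c, which lung macrophages carry as well, had a difference of 0.70 (SE 0.17, adjusted p = 0.150). Cd209a had a difference of 0.54 (SE 0.18, adjusted p = 0.319). Both passed the threshold without irradiated array 1, with adjusted p of 0.0388 and 0.0491, against 1.69% of all genes. With all arrays and a random block for the pairs they also passed, with adjusted p of 0.0091 and 0.0152, against 5.65% of all genes as higher, and with a fixed block only Cd209a did (adjusted p = 0.0350), Itgax having 0.0533. The summed intensity of the list ranged from 186079 to 252686 in the controls and from 155663 to 287885 after irradiation, the lowest on irradiated array 1. Siglech weighed most in this sum, with a control mean of 17.51 on the log2 scale against 13.62 for Ccr7, the next brightest. Its difference was −0.15 (SE 0.19). The list's mean relative to the controls, which weights its genes equally, was −0.20 on irradiated array 1, against −0.43 to 0.43 in the controls and 0.35 to 0.88 on the other irradiated arrays. The part of the macrophage and dendritic cell markers in the differences of the class II genes was not tested. Cd68, Zbtb46 and Itgae were not found through the RefSeq table.

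**Figure D5:**
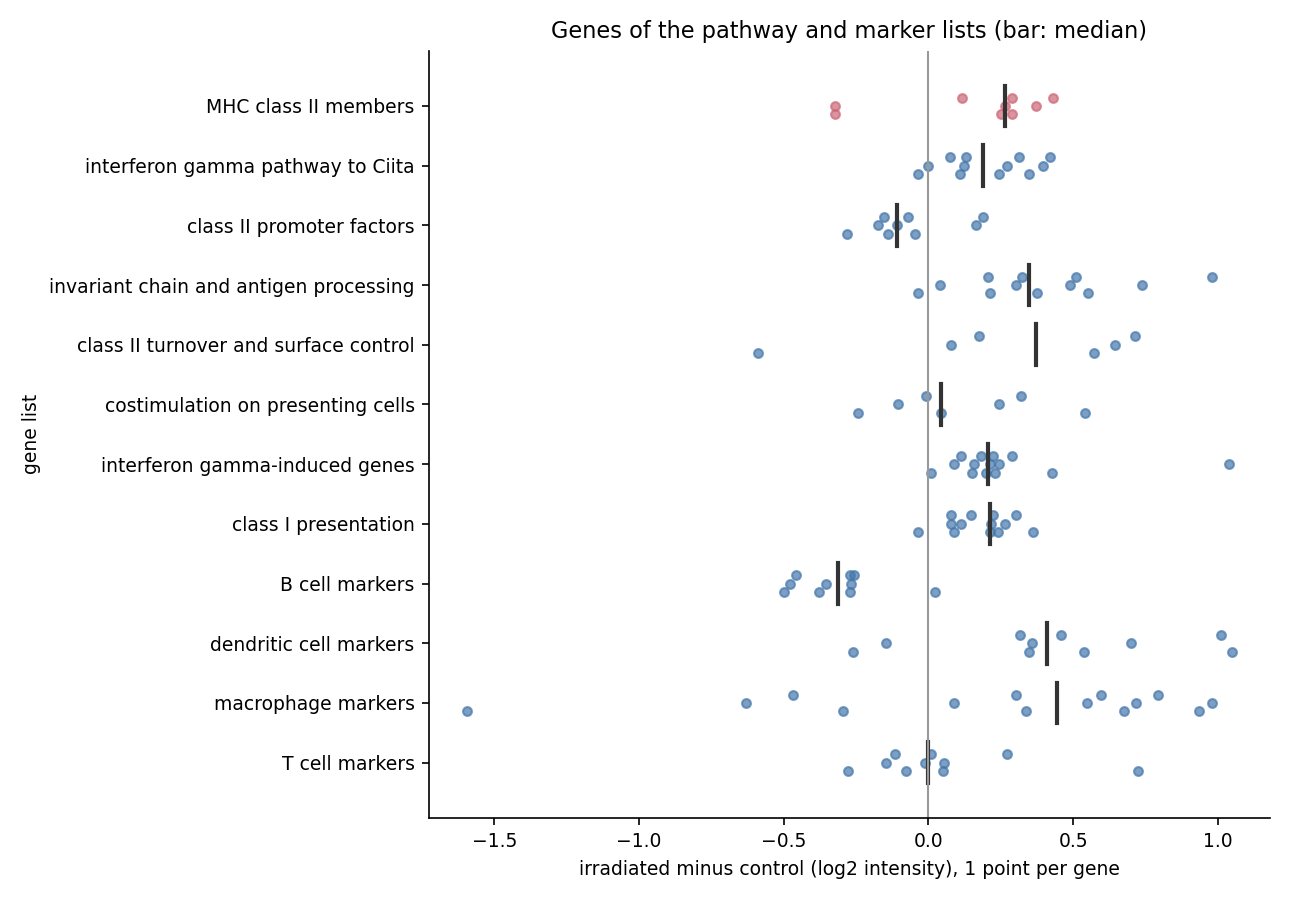
Irradiated minus control difference in log2 intensity of each gene (point) of the class II family (red) and of 11 pathway and marker lists (blue), with the median of each list (bar). The 2 class II genes on the left are H2-Oa and H2-Ob, beside the B cell markers with a median of −0.31.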

How the data were processed

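RNA of mouse lung was measured on 9 one-color Agilent arrays of 44397 spots, 4 control and 5 irradiated, grouped by the labels. For each array the authors deposited scanner output as intensity values not normalized between arrays, including a processed signal corrected for background, the signal and local background of each spot, and marks for its quality. A further table deposited by the authors holds intensity values normalized between arrays and was used only as an alternative. Its column medians were 2054 to 2056, its scale is linear, its genes are not centered, and the common distribution it was set to is not stated.

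From the processed signal, control and outlier spots were left out, the 39303 of 39429 probes brighter than 1.4 times their local background in 4 or more arrays were kept, and the log2 values were quantile normalized. The factor of 1.4 and the quantile method follow the study's methods, and the other choices were made here. A RefSeq table of GRCm38.p6 gave a gene name to 66.1% of the probes by accession. The brightest probe stood for each of 19694 genes. Groups were compared by limma 3.58.1 (R 4.3.3), letting the variance follow intensity, with no covariate and Benjamini-Hochberg adjustment over all kept probes. The scripts were tested on simulated data. Single genes were also compared by an exact permutation test over the 126 regroupings of the arrays.

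The class II genes and all lists were chosen with earlier results of these data known. Named were all class II genes, the 2 to 4 brightest of each pathway list, pathway genes past the threshold in a fit, and the 5 genes most like H2-Aa and Ciita. The marker genes were named after their values were seen. The lists were class II relatives, class II promoter factors, interferon gamma pathway, antigen processing, class II turnover, costimulation, interferon-induced genes, class I presentation, and markers of B cells, dendritic cells, macrophages, monocytes, T cells, leukocytes, type II and type I alveolar cells, endothelium, heart muscle, skeletal muscle and liver.

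As alternatives, the background was corrected by normexp (offset 50), arrays were scaled to their 75th percentile, the background filter was set on all 9 arrays or dropped, and the authors' table or a mean over a gene's probes was taken. Further alternatives were no intensity trend, array weights, an adjusted p under 0.01, a replicate block, and leaving out each array in turn. Pairs of arrays alike in their scan, and the dimmer H2-Ob probe, were added after the data had been seen. The replicate numbers did not pair the arrays: deviations from the group means of arrays with the same number correlated at 0.096, −0.018, −0.0086 and −0.15. Single values of some marker genes are not reported here.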

Additional observations from a re-analysis of the deposited data

Results flagged for a closer look

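Among 26 groups of 4 control or 5 irradiated arrays, over the 9 class II genes and 4 marker lists, 2 held an array whose gap to the nearest other array of its group was a larger share of the group's range than Dixon's 95% value allows. Chance gives about 5% of groups. Both concerned irradiated array 1. H2-Ab1 was at a log2 intensity of 16.98 on it, against 17.83 to 18.07 on the other irradiated arrays, a quotient of 0.777. The mean of the 10 B cell markers, relative to the control mean, was −0.50 on it, against −0.31 to −0.25 on the other irradiated arrays, a quotient of 0.773.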

How the results depend on the processing

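The count of class II genes past the threshold was 0 under every alternative except the scan pair block, with 4 (H2-Aa, H2-Ab1, H2-Eb1 and Cd74), and the scan pairs as a random block, with 1 (H2-Aa). It was 0 without any array in turn. The median difference of the 9 genes was positive under all alternatives, 0.16 to 0.41 when an array was left out, with 0.16 without irradiated array 2, 0.17 without control array 3 and 0.41 without irradiated array 1. The number of class II genes whose groups did not overlap was 0 to 2 when an array was left out: H2-Aa and H2-Ob without control array 1 (8.21% of all genes), H2-Ab1 and H2-Eb1 without irradiated array 1 (5.45% with the irradiated arrays above), and H2-Oa without irradiated array 3 (6.15%). The blocks, the array weights and the variance without a trend leave the levels as they are and gave no value for this count. Ciita turned sign without control array 4 (−0.0080), irradiated array 2 (−0.040) and irradiated array 4 (−4.3e-05), a range of −0.040 to 0.34. The other 8 class II genes kept the direction of their difference under all alternatives, but leaving out an array moved its size, to 0.34 to 0.58 for H2-Aa, 0.16 to 0.44 for H2-Ab1, 0.27 to 0.57 for H2-Eb1, 0.16 to 0.47 for Cd74, 0.13 to 0.44 for H2-DMa, 0.14 to 0.41 for H2-DMb1, −0.42 to −0.20 for H2-Oa and −0.38 to −0.24 for H2-Ob. The lowest values came without irradiated array 2 for H2-Aa, H2-Ab1, H2-Eb1 and Cd74, without control array 2 for H2-DMa and without control array 3 for H2-DMb1. The highest came without irradiated array 1, save H2-Aa and H2-DMa, without control array 1, and H2-Oa and H2-Ob were nearest 0 without irradiated array 1. Over all probes, 131 passed the threshold in the fit of all arrays. The count was 197 with the background filter on all 9 arrays, 44 with the authors' table, 44 with no intensity trend, 5 at an adjusted p under 0.01, 1105 with the scan pair block and 2899 with the pairs as a random block. Without control arrays 1 to 4 in turn it was 46, 11, 5 and 8, and without irradiated arrays 1 to 5 it was 483, 14, 6, 21 and 24, a range of 5 to 483. The replicate block, on numbers that do not pair the arrays, called 1 probe and 0 class II genes, with a median difference of 0.22. With scaling to the 75th percentile, 52 of 124 probes past the threshold were higher, with normexp 56 of 114, and with the authors' values 11 of 44, against 75 of 131. With array weights, 106 of 193 were higher. The cause of these changes was not tested.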

Other observations

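Class I presentation, which shows peptides to killer T cells, was measured through 13 genes. Of these, 12 had a higher mean in irradiated lung, 1 was higher at an unadjusted p under 0.05 (Calr, a chaperone, with a difference of 0.30 and SE 0.13), against 7.37% of all genes, none passed the adjusted threshold, and the median was 0.21, or 0.098 without irradiated array 2. The brightest, H2-K1 and B2m, had differences of 0.21 (SE 0.15) and 0.36 (SE 0.19), or 0.32 and 0.49 without irradiated array 1. With a random block for the scan pairs, Calr rose by 0.36 (adjusted p = 0.0448), against 5.65% of all genes, and its adjusted p with a fixed block was 0.0712. All 14 interferon gamma-induced genes had a higher mean, with a median of 0.21 and none with an unadjusted p under 0.05. The median was 0.0098 without irradiated array 2, with 8 of the 14 higher, and 0.13 without control array 3, 0.088 without control array 4 and 0.35 without irradiated array 1. The brightest, Psmb9 and Psmb8, had differences of 0.090 (SE 0.22) and 0.11 (SE 0.23), or 0.20 each without irradiated array 1. With the pairs as a fixed block, Irgm1, a GTPase, rose by 0.36 (adjusted p = 0.0469), against 2.28% of all genes, and its adjusted p with a random block was 0.231. The mean of the 14 genes relative to the controls was 1.19 on irradiated array 2 and −0.48 to 0.60 on the other irradiated arrays, against −0.52 to 0.54 on the control arrays. Of the 7 costimulatory genes, 4 had a higher mean, with a median of 0.045 and none with an unadjusted p under 0.05. This median is the value of Tnfsf4, 1 of the 4, which was well above background on 0 of the 9 arrays. The median turned to −0.052 without control array 3 and −0.095 without irradiated array 2, and was 0.23 without control array 1. Icosl had −0.11 (SE 0.11) and Cd274 had 0.25 (SE 0.27), or 0.46 without irradiated array 1. With the pairs as a fixed block, Cd274, the ligand PD-L1, rose by 0.46 (adjusted p = 0.0423), 1 of the 7 against 2.28% of all genes, and its adjusted p with a random block was 0.22.

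Other cell type markers gave these counts, with no call at the adjusted threshold in the fit of all arrays without scan pairs. Of 10 T cell markers, 5 had a higher mean, with a median of −0.0014, which ran from −0.13 without irradiated array 2 to 0.12 without irradiated array 1, with 8 of the 10 higher. Of 5 measured monocyte markers, 3 had a lower mean and 2, among them Nr4a1, were lower at an unadjusted p under 0.05, against 4.98% of all genes. Their median ran from −0.32 without control array 2 to 0.024 without control array 4. Of 8 pan-leukocyte markers, 5 had a higher mean, with a median of 0.19, which ran from 0.081 without control array 3 to 0.31 without irradiated array 1. Of 10 type II alveolar markers, 6 had a lower mean, with a median of −0.024, which ran from −0.15 without control array 2 to 0.026 without irradiated array 3 and was −0.12 without irradiated array 1. Of 5 measured type I alveolar markers, 4 had a higher mean, and Pdpn had a difference of 0.52 (SE 0.10, adjusted p = 0.0631) with all irradiated arrays above all control arrays, against 5.14% of all genes whose groups did not overlap. Without irradiated array 1, Pdpn passed the threshold of limma, with a difference of 0.55 and an adjusted p of 0.0388, against 1.69% of all genes. Of 7 endothelial markers, 5 had a lower mean, with a median of −0.17, which ran from −0.29 without irradiated array 1 to −0.031 without control array 2. All 10 cardiac and all 10 skeletal muscle markers had a lower mean, with medians of −1.13 and −1.40. Well above background on all 9 arrays were 9 of the 10 cardiac but only 5 of the 10 skeletal markers. Without irradiated array 1 the cardiac median was −0.20, and without control array 3 the skeletal median was 0.083. Of 7 liver markers, 4 had a higher mean, with a median of 0.12, which ran from −0.17 without irradiated array 2 to 0.51 without control array 4. Only 2 of these 7 were well above background on all 9 arrays, and the median of 0.12 is that of Fgb, which passed on 2 arrays. With the scan pairs as a fixed block, Pdpn rose (adjusted p = 0.0279), against 2.28% of all genes, and Slc34a2 (0.0433) and Etv5 (0.0370) of type II cells and Tie1 (0.0469) of endothelium fell, against 1.56%. With a random block Pdpn rose (0.0019), against 5.65%, and Nr4a1 (0.0246), Abca3 (0.0433), Slc34a2 (0.0266) and Tek (0.0274) fell, against 3.8%. Ly6c2 and Rtkn2 were not found through the RefSeq table.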
